A study of Noccaea caerulescens and Thlaspi montanum with 10 samples.

Results

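The contigs described here are 110 of 41841 leaf transcripts. Their reads stood far higher in both field leaf libraries of Noccaea caerulescens from Viviez than in any field leaf library of the other plants. A contig is a transcript assembled from reads without a genome. Each contig was chosen if its lower Viviez level was at least 5 CPM (reads per 1000000 counted reads of the library) and at least 6 times the highest level among the 4 other leaf libraries, where 0 reads were allowed. The contigs were thus chosen by their levels in Viviez and their distance from the other plants. These values are given as a description, without a test.

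The study asked which leaf transcripts separate a plant that accumulates nickel from relatives that do not. Leaves of 3 plants, each with 2 separate individuals from a natural site in France, were compared. The first was N. caerulescens from Viviez, labelled as not accumulating nickel and collected in June. The second was N. caerulescens subsp. firmiensis (firmiensis), the nickel hyperaccumulator, collected at Puy de Wolf in July. The third was N. montana, a related species labelled as not accumulating nickel, collected at Suc de Clava in June. No treatment is recorded for any of them, and the labels name serpentine soil or a zinc mining site as the kinds of ground without tying them to plants. Site coincides with plant throughout, so genetic background and ground cannot be told apart. The July collection coincides with firmiensis, so in comparisons with that plant month cannot be told apart from them either. Viviez and N. montana share the month. The hydroponic libraries of the series, 4 of 10, are leaves and roots of firmiensis and N. montana and were not analysed here.

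Noccaea species are model plants for metal hyperaccumulation, the storage of zinc, cadmium or nickel in leaves at levels toxic to most plants. Populations of N. caerulescens differ in which metals they take up and tolerate. The trait is known to rest largely on strong transcription of ordinary metal genes, among them those for pumps that load zinc into the xylem, vacuolar transporters and enzymes that make the metal chelator nicotianamine. The contigs carry the prefix Ncfi, for the firmiensis assembly, and a number. The files pair them with no gene names, so no contig below can be tied to any of these functions.

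Each library held between 59476715 and 68439128 reads, and 3 reads in a library corresponded to 0.0438 to 0.0504 CPM. Viviez replicate 2 carries number 4 in its run label and the other leaf libraries 5, a number the labels do not explain. The assembly came from firmiensis, so a transcript that firmiensis lacks is less likely to be listed, and reads from other plants that differ in sequence may be counted less well. How far either shaped the levels was not tested. In whole leaves, fewer cells of a type and less RNA per cell cannot be told apart.

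Together the 110 contigs took 4.60% of the reads in Viviez replicate 1 and 8.26% in replicate 2. In firmiensis they took 0.325% and 0.612%, and in N. montana 0.216% and 0.162%. The mean share was 6.43 ± 2.58% in Viviez, 0.469 ± 0.202% in firmiensis and 0.189 ± 0.0384% in N. montana (SD, n = 2 each). Exact 95% binomial intervals of the single shares were at most 0.0140 percentage points wide and cover counting error only. The spread between individuals was thus far wider than the counting error.

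Most of that share, and nearly all of its spread between the Viviez individuals, came from Ncfi_contig_1579. This contig took 34824 CPM in Viviez replicate 1 and 71169.9 CPM in replicate 2. In firmiensis it took 2635 and 5135 CPM, and in N. montana 1575 and 1271 CPM. Its lower Viviez value was 6.78 times its highest value elsewhere, where the rule requires at least 6 times. Both firmiensis values lay above both N. montana values. By number of reads it ranked 1 in both Viviez libraries, against 36 and 7 in firmiensis and 34 and 56 in N. montana. A contig that is among the most read of every plant was thus a member, and it was the member with the most reads in each other library too. Without it the other members took 1.12% and 1.14% of the Viviez reads, 0.0619% and 0.0981% of the firmiensis reads and 0.0585% and 0.0346% of the N. montana reads. Their share was then 1.13 ± 0.0134% in Viviez (SD, n = 2), so that the individuals were alike in this sum.

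**Figure D1:**
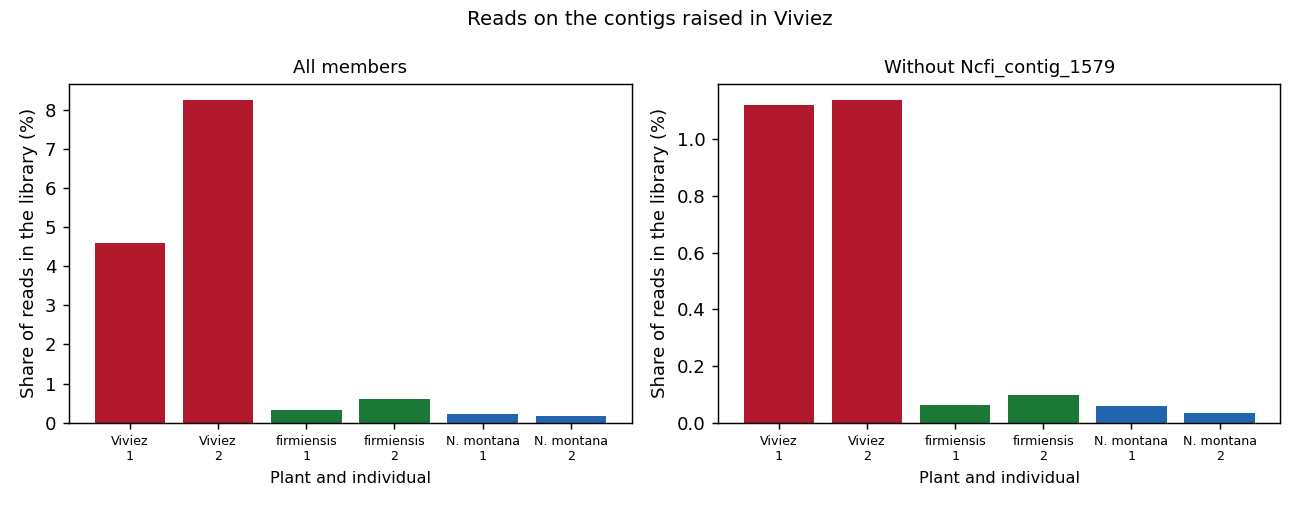
Share of reads (%, linear axes from 0) on the members in each of the 6 leaf libraries, with all 110 members on the left and without Ncfi_contig_1579 on the right. Bars are single libraries; the Viviez bars stand at 4.60% and 8.26% on the left and at 1.12% and 1.14% on the right.

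Beyond this contig the members ranged widely in level. The lower Viviez value was at least 1000 CPM for 3 members, 100 to 1000 CPM for 9, 20 to 100 CPM for 40, 10 to 20 CPM for 22 and 5 to 10 CPM for 36. Its median was 17.2 CPM. CPM are not divided by transcript length, which the files do not give, so these values say which contigs took reads and not which transcripts had most copies. The member next in reads was Ncfi_contig_27780, at 2633 and 2749 CPM in Viviez, 173 and 398 CPM in firmiensis, and 253 and 32.5 CPM in N. montana. Its Viviez individuals lay close together while those of N. montana were far apart.

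**Figure D2:**
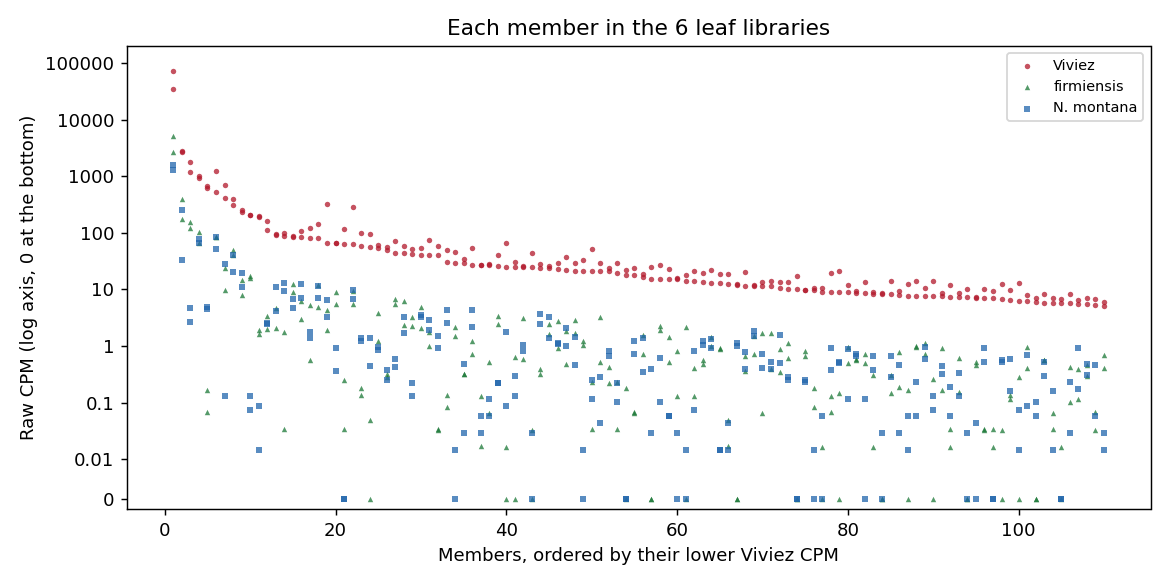
Raw CPM (log axis, 0 drawn at the bottom) of every member in the 6 leaf libraries, 2 points per plant, with the members ordered from left to right by their lower Viviez CPM. The Viviez points form a band above all others, as the rule requires, while the firmiensis and N. montana points spread from 0 up to the limit set by the rule.

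The distance from the other plants ran from just over the limit of 6 to a contrast of reads against none. Counting a library with 0 reads as 3 reads, the lower Viviez value was 6 to 8 times the highest other value for 33 members, 8 to 16 times for 41, 16 to 64 times for 20 and over 64 times for 16. The median was 11.8 times. Most members were low rather than absent elsewhere: 83 had at least 1 read in all 4 other libraries, and 1 had none in any. However, 53 stayed below 1 CPM in all 4, and 14 reached 10 CPM in at least 1.

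With a library of 0 reads counted as 3 reads, the widest distance was that of Ncfi_contig_6444, at 482 times. It had 2784 and 1451 reads in Viviez (44.2 and 24.3 CPM), 0 and 2 reads in firmiensis and 2 and 0 reads in N. montana. As counted, its lower Viviez value was 736 times that of firmiensis replicate 2 alone, with an exact 95% counting interval of 203 to 6086. The next by the first measure was Ncfi_contig_20449, at 64.1 and 117.7 CPM in Viviez, 0.0336 and 0.248 CPM in firmiensis and 0 reads in both N. montana libraries. Its lower Viviez value was 259 times the highest other value. Ncfi_contig_11160 was the single member with no read in any of the 4 other field leaf libraries. In Viviez it had 1071 and 600 reads (17.0 and 10.1 CPM), at least 199-fold higher than 3 reads in any of those libraries allow. The assembly was made from firmiensis reads, so 0 reads in these firmiensis leaves do not show that firmiensis lacks a transcript.

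The members fell into 4 classes by where else they were detected, taking more than 3 reads over both libraries of a plant as detected. In both other plants 86 were detected, 10 in firmiensis and not N. montana, 8 in N. montana and not firmiensis, and 6 in neither. Among the 13917 contigs with at least 5 CPM in both Viviez libraries, 13846 were detected in both other plants, 50 in firmiensis alone, 15 in N. montana alone and 6 in neither. Lack of detection elsewhere is part of what the rule selects, so nothing is read from the difference. Ncfi_contig_17239, read in firmiensis and not in N. montana, had 21.8 and 18.2 CPM in Viviez. In firmiensis it had 0 and 11 reads. The opposite pattern was seen for Ncfi_contig_25404, with 24.3 and 15.5 CPM in Viviez, 0 reads in both firmiensis libraries and 27 and 2 reads in N. montana. Ncfi_contig_11701 had 12.2 and 11.8 CPM in Viviez, 0 reads in firmiensis and 67 and 78 reads in N. montana (0.979 and 1.14 CPM). In this last contig both N. montana individuals were alike.

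**Figure D3:**
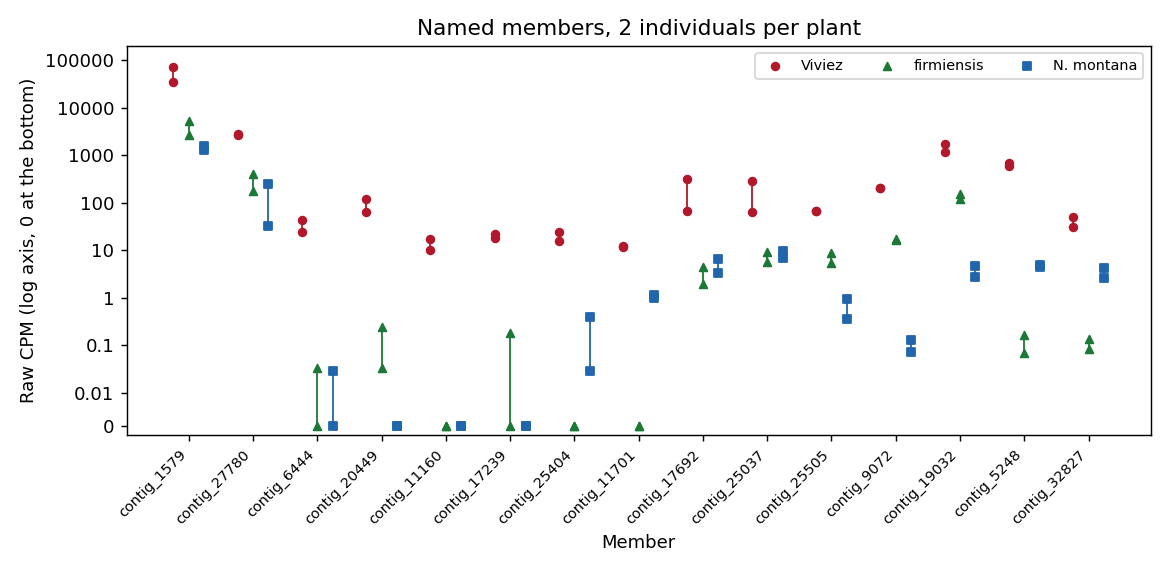
Raw CPM (log axis, 0 drawn at the bottom) of the 15 named members in Viviez, firmiensis and N. montana, with 2 individuals per plant joined by a line. Viviez lies above both other plants for each, as the rule requires, and the order of firmiensis and N. montana changes from member to member.

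The rule treats firmiensis and N. montana alike, so the difference between them was tested. Leaf transcripts low in both could be lower still in the hyperaccumulator or in the other species. Counts of all contigs were fitted in 1 model over the 6 libraries (quasi-likelihood test of edgeR, TMM scaling, Benjamini-Hochberg adjustment over 32989 contigs tested, threshold 0.05). All 110 members passed the filter on low counts, but 24 of them did so only through their Viviez reads, the values that chose them, so the counts over the 110 are a description. Of the 110, 22 (20.0%) were called higher and 12 (10.9%) lower in firmiensis than in N. montana. Over all contigs tested, 15.8% were called higher and 15.1% lower, and 30.9% either way. The libraries of firmiensis and N. montana did not overlap in any of the 34 called members. The same was not counted over all called contigs, so nothing is read from this. In all, 34 members (30.9%) had both firmiensis libraries above both N. montana libraries after TMM scaling and 20 (18.2%) had them below. Over all contigs tested these shares were 34.3% and 35.8%. Of the 24 members that passed only through their Viviez reads, 2 were called higher and 1 lower. No such share over all contigs was counted, so these numbers carry no result. In a fit of the 4 libraries compared, without Viviez, the other 86 members passed the filter. Of these 86, 13 (15.1%) were called higher and 10 (11.6%) lower, against 13% and 12.9% of the contigs then tested. Among contigs with at least 1 CPM in 2 of these 4 libraries, 44 members were tested. Of these 44, 12 (27.3%) were called higher and 4 (9.09%) lower, against 19% and 18% of contigs. DESeq2 called 26 of the 110 members (23.6%) higher and 16 (14.5%) lower, against 20% and 18.8% of contigs.

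TMM scaling adds 0.30 to the log2 ratio of raw CPM of firmiensis over N. montana, and the log2 fold changes below include it. The widest difference upward among called members with at least 1 CPM on average over the 4 firmiensis and N. montana libraries was that of Ncfi_contig_9072. It had 16.1 and 17.4 CPM in firmiensis, against 0.132 and 0.0731 CPM in N. montana, where it rests on 9 and 5 reads. This gave a log2 fold change of 7.62 ± 0.34 (SE; adjusted p = 0.000796, edgeR). In Viviez the same contig stood at 206.9 and 205 CPM, so the plants formed 3 steps without overlap. Ncfi_contig_19032 showed the same order, at 1746 and 1174 CPM in Viviez. It had 119.5 and 152 CPM in firmiensis and 4.70 and 2.68 CPM in N. montana, a log2 fold change of 5.49 ± 0.45 between those (SE; adjusted p = 0.00202, edgeR).

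Other members stood lower in firmiensis than in N. montana. Ncfi_contig_5248 had 680 and 607 CPM in Viviez. In firmiensis it had 4 and 10 reads (0.0673 and 0.165 CPM), against 4.87 and 4.53 CPM in N. montana. The log2 fold change came to -5.03 ± 0.37 (SE; adjusted p = 0.00166, edgeR), and to between -4.60 and -5.68 when any library was left out. Here firmiensis, of the same species as Viviez, was the lowest plant. Ncfi_contig_32827, at 49.8 and 30.8 CPM in Viviez, had 8 and 5 reads in firmiensis (0.135 and 0.0825 CPM), against 4.33 and 2.59 CPM in N. montana. The log2 fold change came to -4.67 ± 0.50 (SE; adjusted p = 0.00338, edgeR). Ncfi_contig_11701, described above, was at least 42.4-fold lower in firmiensis against a limit of 3 reads over its libraries (edgeR adjusted p = 0.00278). The calls of these 5 members held in every alternative in which they were tested.

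Some members whose values looked unequal did not pass. Ncfi_contig_1579 had a log2 fold change of 1.72 ± 0.67 in firmiensis over N. montana (SE; adjusted p = 0.0989, edgeR). Its adjusted p ranged from 0.00166 with DESeq2 to 0.277 over 13 alternatives, and DESeq2 alone called it. Ncfi_contig_27780 had 1.24 ± 0.90 (SE; adjusted p = 0.328, edgeR). It passed only when N. montana replicate 1, its higher N. montana library, was left out (edgeR adjusted p = 0.0256), and its adjusted p reached 0.680.

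**Figure D4:**
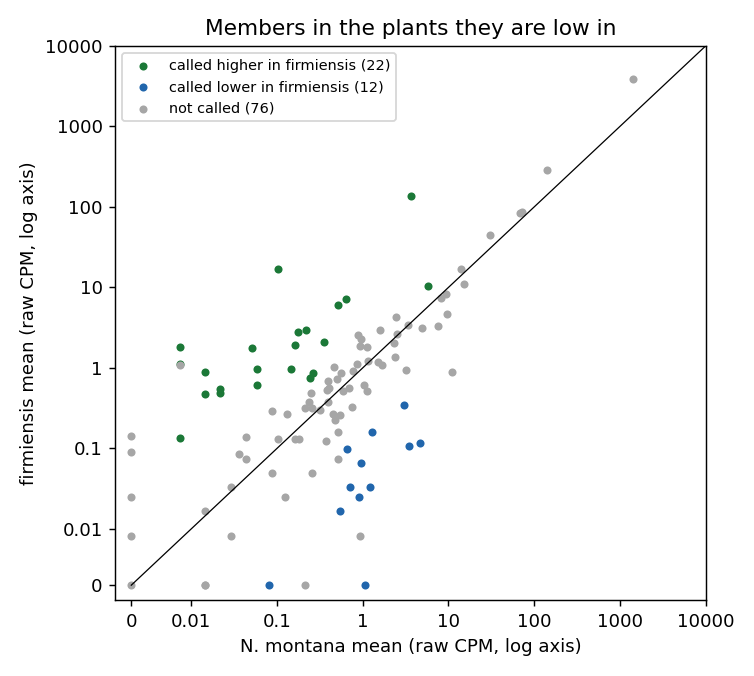
Mean raw CPM of each member in firmiensis (vertical) against N. montana (horizontal), on log axes with 0 drawn at the low end and a line of equal values. Members called higher in firmiensis (22) lie above the line and those called lower (12) below it, and the 76 not called lie on both sides of it, some of them far from it.

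Among the 86 members detected in both plants, the fitted fold change favoured firmiensis in 56 (65.1%), against 49.9% of the 31068 tested contigs detected in both. The median log2 fold change was 0.54 for the members and -0.0036 for those contigs. These 86 are not the same set as the 86 that passed the filter without Viviez. In that fit of the 4 libraries 78 of them were tested, and the rest had passed only through their Viviez reads. Of the 78, 51 (65.4%) were positive, against 50.1% of 30418 contigs, with medians of 0.52 and 0.0016. The values are a description. This lean rested in part on firmiensis replicate 2. Without that library 47 of 86 (54.7%) were positive, against 48.2% of contigs, and the medians were 0.10 and -0.06. Without any other library between 52 and 56 of the 86 were positive. In firmiensis, replicate 2 exceeded replicate 1 in raw CPM in 62 of the 88 members with at least 10 reads (70.5%), against 62.7% of all such contigs. The firmiensis library with most member reads was also the one that most often set the limit. It was the highest of the 4 other libraries for 47 members. That number was 16 for firmiensis replicate 1, 27 for N. montana replicate 1 and 20 for N. montana replicate 2. Either firmiensis library was the highest for 63 members (57.3%), against 41.7% of the 13917 contigs with at least 5 CPM in both Viviez libraries. The rule used the highest other value, so this is a description.

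The ratio between the Viviez individuals was wider at the members than at well-read contigs as a whole. The rule used the lower of the Viviez values and not their ratio, and the values are given as a description. The median ratio of the higher to the lower individual was 1.33 over the members and 1.14 over the 13917 contigs with at least 5 CPM in both. A ratio over 1.5 was found in 40 members (36.4%), against 11.1% of those contigs, and a ratio over 2 in 9 (8.18%), against 3.09%. By level, the median was 1.32 for members and 1.16 for all contigs at 5 to 20 CPM, 1.40 and 1.12 at 20 to 100 CPM, and 1.19 and 1.14 above. The difference in run label number coincides with that between the Viviez individuals, and its part in these ratios was not tested.

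The direction was mixed. Replicate 2 was above replicate 1 in 38 of 110 members (34.5%), against 46.4% of contigs at 5 CPM or more in both. Among the 9 members past a ratio of 2, replicate 1 was the higher in 5 and replicate 2 in 4. The widest ratio was that of Ncfi_contig_17692, at 66.9 CPM in Viviez replicate 1 and 320 CPM in replicate 2, a ratio of 4.78. Ncfi_contig_25037 stood at 62.9 and 287 CPM, a ratio of 4.56. In the other plants the gaps between individuals were narrower for these contigs, but not absent. Ncfi_contig_17692 had 1.95 and 4.39 CPM in firmiensis and 3.29 and 6.55 CPM in N. montana, and Ncfi_contig_25037 had 9.28 and 5.53 CPM in firmiensis and 6.74 and 9.71 CPM in N. montana. At the other end, Ncfi_contig_25505 had 65.8 and 65.7 CPM in Viviez and Ncfi_contig_9072 had 206.9 and 205 CPM.

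**Figure D5:**
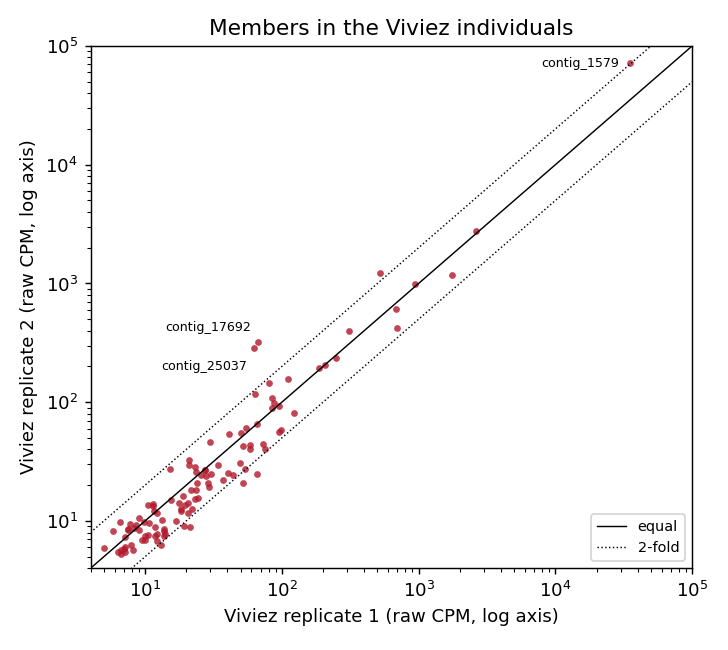
Raw CPM of each member in Viviez replicate 2 (vertical) against replicate 1 (horizontal), both on log axes, with a solid line at equal values and dotted lines at a ratio of 2. Of the 110 points, 101 lie within the dotted lines, and Ncfi_contig_17692 and Ncfi_contig_25037 lie farthest above them.

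Individuals also differed in the plants where the members were low. At a mean of 1 to 20 CPM, the median ratio between individuals was 1.84 over 33 members in firmiensis, against 1.38 over all contigs in that range, and 1.48 over 29 members in N. montana, against 1.33. A ratio over 10, with at least 1 CPM in either individual, was found in 3 of 46 members in firmiensis (6.52%, against 2.45% of contigs) and in 2 of 40 in N. montana (5.00%, against 1.27%). None of the 110 reached it in Viviez, against 0.727% of contigs, but the rule's demand on the lower Viviez value works against such a ratio. Members with 0 reads in 1 individual and at least 10 in the other numbered 6 in firmiensis and 0 in N. montana. The same count over all contigs was not made, so nothing is read from these numbers. An example of such a member is Ncfi_contig_19154, with 17.6 and 14.1 CPM in Viviez. It had 0 and 130 reads in firmiensis, and 1 and 0 reads in N. montana. Ncfi_contig_22128 stood at 693 and 419 CPM in Viviez and at 9.82 and 23.9 CPM in firmiensis. In N. montana it had 1920 reads in replicate 1 (28.1 CPM) and 9 in replicate 2 (0.132 CPM). These contigs were chosen after their values were seen. For Ncfi_contig_22128, N. montana replicate 1 set the distance from Viviez, but firmiensis replicate 2 stood close to it (28.1 and 23.9 CPM).

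Contig numbers gave little further structure. Ncfi_contig_33109 and Ncfi_contig_33110, chosen after their values were seen, were the only members with consecutive numbers. They had 40.7 and 25.4 CPM, and 51.9 and 42.7 CPM, in Viviez. In firmiensis the values were 2.45 and 3.43 CPM for Ncfi_contig_33109 and 2.25 and 3.30 CPM for Ncfi_contig_33110, and in N. montana both contigs had 15 reads in replicate 1 and 15 and 9 in replicate 2. Near-identical contigs can share reads, which the files do not resolve, so this pair may not be 2 separate observations.

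The limits of the rule passed through a continuous range. The members nearest above the fold of 6 were Ncfi_contig_38772, at 6.08, and Ncfi_contig_5525, at 6.16. Those nearest below were Ncfi_contig_20928, at 5.93, and Ncfi_contig_10583, at 5.86. Ncfi_contig_5525 had 524 and 1229 CPM in Viviez, 85.0 and 85.1 CPM in firmiensis, and 52.2 and 84.5 CPM in N. montana. Ncfi_contig_10583 had 17.0 and 19.6 CPM in Viviez, 2 reads in each firmiensis library, and 199 and 2 reads in N. montana, so that N. montana replicate 1 alone kept it out. At the limit of 5 CPM, Ncfi_contig_18745 (5.03 CPM) and Ncfi_contig_25594 (5.31 CPM) were just inside, and Ncfi_contig_30473 (4.997 CPM) and Ncfi_contig_38458 (4.96 CPM) just outside. Ncfi_contig_38458 stood 75.2 times above its highest other library. Between 4 and 6 times lay 56 further contigs, and 65 met the fold of 6 at 2 to 5 CPM.

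The same rule was met by 110 contigs (0.263%) with Viviez, 130 (0.311%) with firmiensis and 646 (1.54%) with N. montana as the raised plant. These sets took different shares of their own plants' reads: 6.43 ± 2.58% for Viviez, 0.515 ± 0.0912% for firmiensis and 7.80 ± 1.16% for N. montana (SD, n = 2 each). Without Ncfi_contig_1579 the Viviez share was 1.13%. No read in any other library was found for 1 of 110, 5 of 130 and 9 of 646 contigs in the same order. In reverse, 135 contigs stood at least 6 times lower in both Viviez libraries than in every other library, where they had at least 5 CPM. These counts are descriptions of the 6 libraries, and the plants were not compared by a test.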

How the data were processed

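PolyA RNA of leaves was sequenced from 6 field plants. Per the labels' protocols, the extraction used an RNeasy kit and DNase, and libraries were TruSeq Stranded mRNA. Per the file headers, the authors deposited a raw count of reads for every contig, on an assembly that, per the series' design text, was made from firmiensis reads. No aligner, counter or filter is given in the sources used here. Of 41843 contigs, 2 had empty cells and were left out.

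Raw CPM were counts over the column total. Members and lists were chosen with earlier results of these data known. Lists of metal genes were not used, since no contig has a gene name. Named members were taken by rule, up to 2 per question: most reads, widest fold, detection in single plants, most and least alike Viviez individuals, widest difference between firmiensis and N. montana, and nearest to each limit. Exceptions are marked.

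Counts were tested with edgeR 4.0.16 in R 4.3.3 (filterByExpr minimum count 10, TMM, glmQLFit with a coefficient per plant over all 6 libraries, 3 residual degrees of freedom, common biological coefficient of variation 39.5%). The SE is the log2 fold change over the square root of F. DESeq2 1.42.0 and other settings were alternatives. The procedure was also run on simulated counts. Far fewer contigs were changed there than were called in the real data, and in firmiensis alone, so no error rate is drawn from it. Libraries of a plant differed by 111 to 194 chi-square per degree of freedom, so none was a copy of another.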

Additional observations from a re-analysis of the deposited data

How the results depend on the processing

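The rule gave 110 contigs. It gave 166 at a fold of 4, 67 at a fold of 10, 175 at a lowest Viviez level of 2 CPM and 74 at 10 CPM. With TMM-scaled CPM it gave 118, of which 108 were among the 110, and with DESeq2 size factors 117, of which 107 were. Leaving out a library gave 118 to 175 contigs, and 175 without Viviez replicate 2. All 110 stay by construction, since the rule then sets fewer conditions. The members' share of Viviez reads was 4.60% to 8.26% with either library left out and 1.13% without the member with most reads, an alternative chosen after seeing the data. In firmiensis against N. montana, 22 members were called higher and 12 lower. With at least 1 CPM in 2 of the 4 libraries compared, 44 members were tested. Of these, 12 (27.3%) were called higher and 4 (9.09%) lower, against 19% and 18% of contigs. In the fit of the 4 libraries alone, 13 of 86 (15.1%) were called higher and 10 (11.6%) lower, against 13% and 12.9% of contigs. These settings also test fewer members. Counts and shares over all 110, here and below, include the 24 that passed the filter only through their Viviez reads. They are therefore a description. Leaving out a library gave 18 to 23 higher (16.4% to 20.9% of members, against 8.29% to 11.4% of contigs) and 10 to 15 lower (9.09% to 13.6%, against 6.98% to 10.2%). DESeq2 called 26 and 16. With the replicate number as a replicate block, 22 were called higher and 12 lower (20.0% and 10.9% of members, against 11.62% and 10.99% of contigs). The numbers name separate plants, and same-numbered firmiensis and N. montana libraries deviated with a correlation of -0.0909 over contigs. Over all contigs the block moved the calls to 3834 higher and 3624 lower, against 5209 and 4986. Of the 34 called members, 12 lost the call in at least 1 alternative. Ncfi_contig_9072, Ncfi_contig_19032, Ncfi_contig_5248 and Ncfi_contig_32827 kept direction and call in all 13. With 2 plants a group, small differences may go undetected. Levels below 0.0438 to 0.0504 CPM rest on fewer than 3 reads in a library and are uncertain.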
